A study of Bos taurus with 12 samples.

Results

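The miRNAs of the miR-17-92 and miR-106b-25 clusters were examined in small RNA libraries of bovine mammary gland. Members were picked by name, as the mature miRNAs bta-miR-17-5p, miR-18a, miR-19a, miR-20a, miR-19b and miR-92a of miR-17-92, miR-106b, miR-93 and miR-25 of miR-106b-25, and miR-20b, whose gene lies in the paralogous miR-106a-363 cluster. All 10 were present among the 388 mature miRNAs of the deposited matrix. The libraries came from mammary biopsies of 12 multiparous Chinese Holstein cows, a dairy breed, with 3 cows in each of 4 groups. HP and LP cows had a high or a low milk protein percentage and were sampled in lactation. HD and LD cows had a high or a low milk protein percentage and were in the non-lactating period. Per the paper, the percentage came from herd records of the lactation before. The labels name no treatment or genotype for any group, each library was 1 cow, and the lactating and the non-lactating cows were different animals. A biopsy mixes epithelium with vessel, muscle and blood cells, so fewer cells of a type and less miRNA per cell cannot be told apart in any value below.

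A clustered miRNA is cut from a primary transcript that carries several hairpins, and its final level also depends on how each hairpin is processed and on how long the mature strand lasts. The miR-17-92 cluster, also called oncomiR-1, is switched on by MYC and E2F factors and favours cell cycle entry and survival. The miR-106b-25 cluster sits inside MCM7, a gene for a subunit of the replicative helicase, and is transcribed with it. Both clusters arose from the same ancestral unit and encode miRNAs with shared seeds, the short 5′ stretch that selects target mRNAs. The miR-17 seed group holds miR-17-5p, miR-20a, miR-20b, miR-106b and miR-93 and represses among others the cell cycle inhibitor p21. The miR-19 group holds miR-19a and miR-19b. The miR-92 group (miR-92a and miR-25) represses BIM, a death factor, and miR-92a also restrains vessel growth. miR-18a forms a seed group of its own with miR-18b.

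In the RefSeq annotation of the bovine assembly ARS-UCD2.0, MIR17, MIR18A, MIR19A, MIR20A, MIR19B and MIR92A-1 lie next to each other on chromosome 12 in that order. MIR106B, MIR93 and MIR25 lie next to each other on chromosome 25, within MCM7. The X chromosome holds MIR363, MIR92A-2, MIR19B-2, MIR20B, MIR18B and MIR106A in a run. The number of other genes between the first and the last miRNA gene of each run was 0. miR-92a and miR-19b were each listed under 2 precursors, a chromosome 12 copy and an X-linked copy. The entry for the chromosome 12 copy of miR-92a stood at 1.11 to 1.19 times the X-linked entry in the 12 libraries. For miR-19b the X-linked entry stood at 0.940 to 1.11 times the other. Reads of these mature strands can match both copies, and the share of each locus cannot be read from the values. The entry with the higher mean was used, which was the chromosome 12 copy for miR-92a and the X-linked copy for miR-19b.

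Levels are given as TPM, which in this matrix are miRNA reads scaled to the same total in every library, with no correction for length. The steps between low values put the reads assigned to miRNA entries, called depth here, at 6026620 to 13373813 in the lactating libraries. In the non-lactating libraries they were 11047233 to 23577192. These are sums over all 426 entries, and a read matching several precursors can be counted at each. They are not the reads sequenced, for which the paper gives a narrow range over all libraries after trimming. The median sum was 10732359.5 in lactation and 21207958.5 outside it, with overlapping ranges. Every TPM is scaled to this sum, and its part in the stage differences was not tested. With depth this size, 3 reads correspond to 0.127 to 0.498 TPM, and these limits cover counting error only. Fold changes were computed after dividing each library's TPM by a size factor, the median ratio of its miRNAs to their geometric mean over libraries. Size factors were computed anew over the libraries of each comparison. Over all 12 libraries, the first replicates of HD and LD stood apart, with size factors of 1.5 each against 0.764 to 1.14 in the other 10. Unscaled TPM of several members were highest in these 2 libraries. TPM without further words are the deposited values, and normalized TPM are those divided by the size factor.

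The 10 miRNAs together made up 0.988% to 3.07% of the summed TPM of the 388 mature miRNAs, with 1 entry kept for each. bta-miR-92a was the most abundant, with a mean of 7651 TPM over 12 libraries and rank 22 of 388 miRNAs. bta-miR-25 followed with 3938 TPM at rank 32, and bta-miR-93 with 1206 TPM at rank 59. These 3 stood in the same order in 12 of 12 libraries.

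The next 3 members lay close together. bta-miR-20a had a mean of 302 TPM, bta-miR-17-5p of 251 TPM and bta-miR-106b of 216 TPM. miR-20a exceeded miR-17-5p in 10 of 12 libraries, and miR-17-5p exceeded miR-106b in 10 of 12, so that neither order held throughout. bta-miR-20b at 21.7 TPM and bta-miR-18a at 15.6 TPM changed places too, with miR-20b the higher in 8 of 12 libraries.

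The miR-19 members were near the bottom of the matrix. bta-miR-19b had a mean of 2.89 TPM (16 to 67 reads a library) and bta-miR-19a of 0.680 TPM (3 to 18 reads a library), rank 369 of 388. The mean of miR-92a was 11252 times that of miR-19a, although each has a hairpin in the same chromosome 12 run. Reads of miR-92a can also match its X-linked copy, so the part from that run is not known. For miR-19a, 1 library held no more than 3 reads, and small differences in it were not detectable at this depth.

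**Figure D1:**
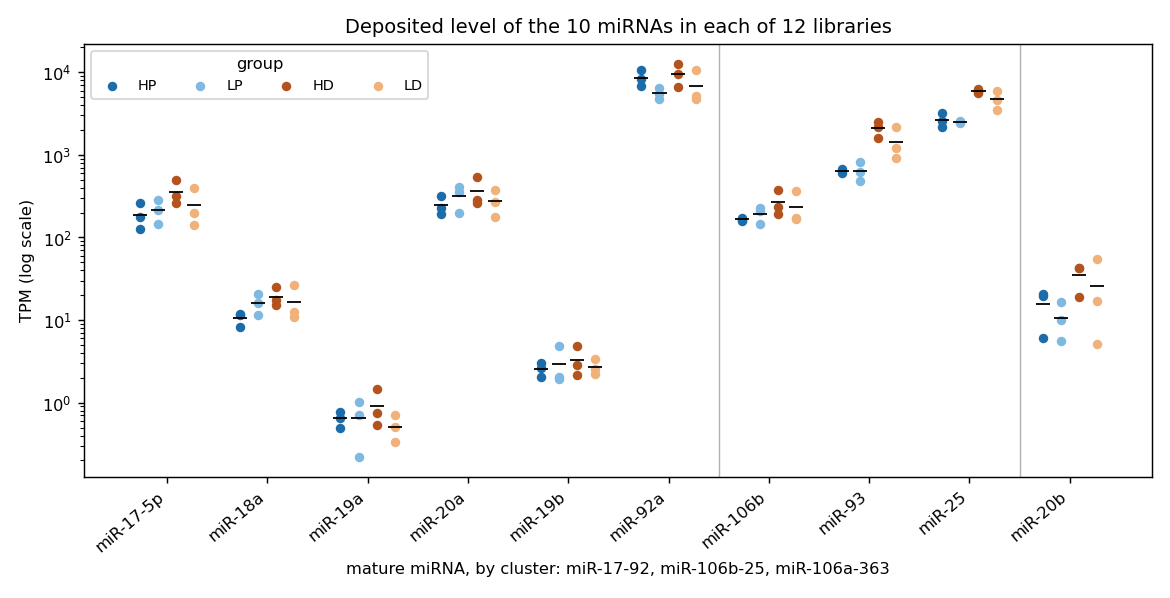
Deposited TPM on a log axis for the 10 miRNAs, with a point for each library, a black bar at the mean of 3 libraries and colours for HP, LP, HD and LD; vertical lines part miR-17-92, miR-106b-25 and miR-20b of the miR-106a-363 cluster. miR-92a lies highest and miR-19a lowest, and for miR-93 and miR-25 every HD and LD point lies above every HP and LP point.

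Lactating and non-lactating glands were compared to ask which members followed the stage of the lactation cycle. miR-93 and miR-25 were lower in lactation, and no member was higher past the test. miR-93 represses the same class of targets as miR-17-5p. Its level was 601, 645 and 684 TPM in HP and 482, 831 and 613 TPM in LP. In the non-lactating gland it was 2517, 2196 and 1582 TPM in HD and 2196, 910.45 and 1211 TPM in LD. All 6 lactating libraries thus lay below all 6 non-lactating ones, with the nearest pair being the second LP and the second LD library. The log2 fold change, lactation minus non-lactating, was -1.28 (SE 0.15, n = 6 and 6, adjusted p = 4.28e-05, limma on log2 values with Benjamini-Hochberg adjustment over 388 miRNAs), a level 0.411 times that of the non-lactating gland.

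miR-25, which shares the miR-92 seed, behaved in the same direction. It was measured at 2194, 2600.1 and 3179 TPM in HP and at 2591, 2463 and 2491 TPM in LP. The HD libraries held 6189, 5839 and 5599 TPM and the LD libraries 6005, 3457 and 4653 TPM. No lactating library reached a non-lactating one, and the 3 LP values were within a narrow band while LD ranged most widely. Its log2 fold change was -0.90 (SE 0.18, adjusted p = 0.00162, limma), or 0.534 times the non-lactating level.

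The third member of the cluster, miR-106b, differed less. Its levels were 160.3, 164 and 171 TPM in HP, 145, 225 and 211 TPM in LP, 377, 236 and 191 TPM in HD, and 369, 171 and 169 TPM in LD. Both high values came from the first replicates of HD and LD, the libraries with large size factors, and the stages overlapped. A log2 fold change of -0.31 (SE 0.15, adjusted p = 0.110, limma) did not pass the test, and its 95% interval ran from -0.64 to 0.01.

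Because the 3 hairpins lie in the same intron-borne run, their ratios within a library were also compared; such ratios need no scaling between libraries. miR-93 stood at 2.90 to 3.997 times miR-106b in lactation (median 3.72) and at 5.32 to 9.32 times in the non-lactating gland (median 6.91), with no overlap. miR-25 stood at 10.96 to 18.6 times miR-106b in lactation and at 16.3 to 29.3 times in the non-lactating gland. miR-25 over miR-93 went the other way, from 2.96 to 5.37 in lactation and from 2.46 to 3.84 outside it. The mean log2 ratio of miR-93 to miR-106b was lower in lactation by a difference of -0.97 (exact two-sided permutation test over 6 and 6 libraries, p = 0.00216, the smallest this design can give, adjusted p = 0.00649 over the 3 pairs). The difference was -0.59 for miR-25 over miR-106b (exact permutation p = 0.0216, adjusted p = 0.0325) and 0.38 for miR-25 over miR-93 (exact permutation p = 0.0433, adjusted p = 0.0433). These 3 ratio tests were added after the levels had been seen, and the adjustment covers these 3 pairs alone. The 3 ratios are linked, since the third follows from the others. In these libraries the ratio of miR-93 to miR-106b differed between stages without overlap. The 2 ratios with miR-25 shifted with overlapping stages.

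**Figure D2:**
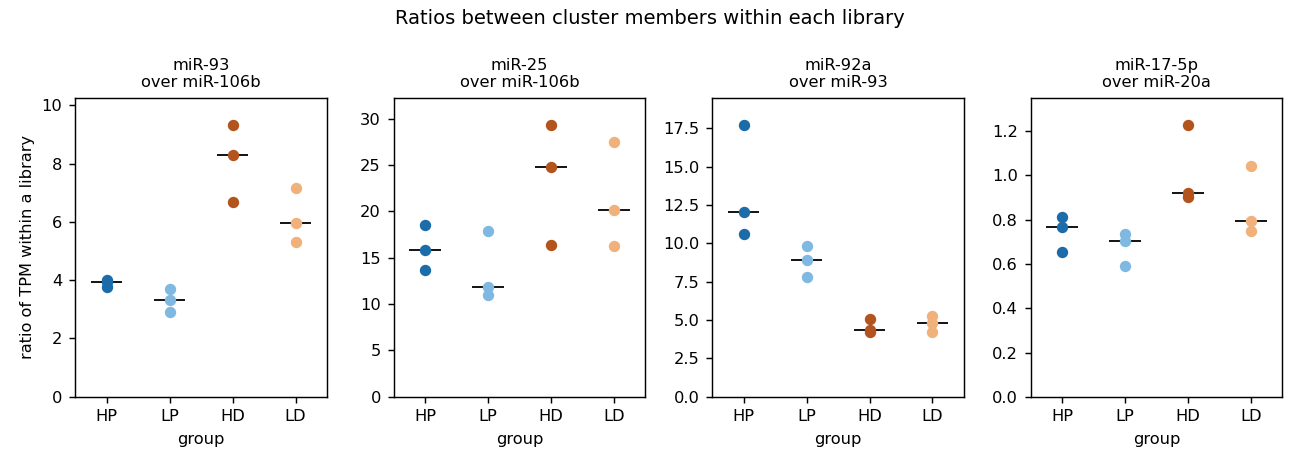
Ratio of TPM between pairs of members within each library (points, 3 a group; black bars, group medians; linear axes from 0). The ratio of miR-93 to miR-106b is 2.90 to 3.997 in HP and LP and 5.32 to 9.32 in HD and LD, miR-92a over miR-93 falls from 7.82 to 17.7 in HP and LP to 4.21 to 5.26 in HD and LD, and the other 2 pairs overlap between stages.

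The 6 members of miR-17-92 gave no call between stages. miR-92a was at 10639, 6836 and 8226 TPM in HP, 4729, 6500.2 and 5479 TPM in LP, 12719.8, 9518 and 6668 TPM in HD, and 10580.4, 4790.3 and 5128 TPM in LD. Every group overlapped the range of the opposite stage. Its log2 fold change was -0.07 (SE 0.16, adjusted p = 0.773, limma), with a 95% interval of -0.42 to 0.29. miR-92a over miR-93 was 7.82 to 17.7 in lactation and 4.21 to 5.26 outside it, without overlap.

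miR-17-5p, which gave the cluster its name, was measured at 260.5, 126 and 175 TPM in HP, 147, 285 and 212 TPM in LP, 494, 321 and 259.5 TPM in HD, and 396, 141 and 198 TPM in LD. The highest library was in HD, and every group overlapped the opposite stage. Between stages miR-17-5p had a log2 fold change of -0.41 (SE 0.21, adjusted p = 0.130, limma), and without the first HP replicate it was -0.57 with an adjusted p of 0.0232. miR-20a, its seed mate from the same run, was measured at 321, 193 and 229 TPM in HP, 200.1, 405 and 359 TPM in LP, 546, 261 and 282 TPM in HD, and 380.5, 177 and 265 TPM in LD. Its log2 fold change was -0.02 (SE 0.21, adjusted p = 0.945, limma). miR-18a stood at -0.27 (SE 0.18, adjusted p = 0.260), while miR-19a and miR-19b stood at 0.00 and -0.01 with adjusted p of 0.993 and 0.977.

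miR-20b, the X-linked relative of miR-20a, varied most among the 10. Its levels were 20.9, 6.12 and 19.4 TPM in HP, 16.4, 9.88 and 5.55 TPM in LP, 42.5, 42.9 and 19.1 TPM in HD, and 55.1, 5.06 and 17.2 TPM in LD. The highest and the lowest library, both LD, were 10.9 times apart. The log2 fold change between stages was -0.87 (SE 0.44, adjusted p = 0.129, limma), and without the second LD replicate it was -1.20 with an adjusted p of 0.0285.

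In all, 2 of 10 members (20%) passed an adjusted p of 0.05 between stages, both lower in lactation. Of all 388 miRNAs tested, 44.3% passed, 22.2% in the lower direction, so the share of members called was below that of the matrix as a whole. Members whose stages did not overlap numbered 2 of 10, against 21.9% of all miRNAs on the normalized scale and 15.2% on the deposited TPM. The median log2 fold change of the members was -0.29 beside -0.01 for all miRNAs, and 9 of 10 members had a negative value. The calls of miR-93 and miR-25 were kept without size factors, where their log2 fold changes were -1.39 and -1.01, and without the first HD and LD replicates, where they were -1.28 and -1.04.

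Markers of other cells moved with stage as well. Of 5 leukocyte miRNAs, miR-142-5p (log2 fold change -0.77, adjusted p = 0.0165, limma) and miR-155 (-1.29, adjusted p = 0.000415) were lower in lactation. miR-142-3p at -0.48, miR-150 at 0.34 and miR-223 at 0.13 did not pass, and miR-150 and miR-223 pointed the other way. The leukocyte list summed to 5146 to 8911 TPM in lactation and 8262 to 20486 TPM outside it. Most of that sum was miR-142-5p, with means of 5551 and 10254.5 TPM. Of 6 epithelial miRNAs, 5 were higher in lactation, with sums of 34301 to 44371 TPM against 14978 to 38785 TPM. Both endothelial miRNAs were higher in lactation, and 0 of 3 red cell, 0 of 2 smooth muscle and 0 of 2 skeletal muscle miRNAs passed. miR-206 of the skeletal muscle list was not in the matrix, and no marker was at 0 in any library. The part of these cells in the lower miR-93 and miR-25 was not tested.

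HP and LP were compared to ask whether the milk protein phenotype went with a different miRNA level in lactation. A miRNA was called differentially expressed (DE) at an unadjusted p under 0.05 with an absolute log2 fold change over 0.8, the rule of the study, and the adjusted p is given beside it. By limma, 0 of 10 members were DE, where 10.1% of all miRNAs were, and 1 of 10 had an unadjusted p under 0.05, where 15.7% of all miRNAs had. That member was miR-92a, at 11116, 6892 and 7487 normalized TPM in HP and at 5640.2, 5671 and 5428 normalized TPM in LP. All LP values lay below all HP values and within a narrow range, with the first HP library the highest. The log2 fold change, LP minus HP, was -0.57 (SE 0.26, n = 3 and 3, adjusted p = 0.315, limma), short of the 0.8 the rule asks for. Its unadjusted p stayed under 0.05 in 4 of 15 alternative settings, and without the first HP replicate the log2 fold change was -0.37. The ratio of miR-92a to miR-20a was 33.1 to 36.0 in HP and 15.2 to 23.6 in LP, and that to miR-17-5p was 40.8 to 54.1 in HP and 22.8 to 32.2 in LP. In the non-lactating gland both ratios overlapped. To miR-20a the ratio was 23.3 to 36.4 in HD and 19.3 to 27.8 in LD, and to miR-17-5p 25.7 to 29.7 and 25.9 to 34.1. These ratios were looked at after the levels were known and were not tested.

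miR-18a and miR-106b were the other 2 members without overlap on the normalized scale, both higher in LP. miR-18a was at 12.1, 8.31 and 10.8 normalized TPM in HP and at 13.8, 18.3 and 15.9 in LP. LP minus HP gave a log2 fold change of 0.58 (SE 0.32, adjusted p = 0.447, limma). miR-106b was at 167, 166 and 156 normalized TPM in HP and at 173, 196 and 209 in LP, with a log2 fold change of 0.24 (SE 0.24, adjusted p = 0.737, limma). Neither passed, and groups apart in 3 of 10 members compare with 19.8% of all miRNAs. On the deposited TPM miR-18a and miR-106b overlapped, and 1 of 10 members, miR-92a, was apart against 17.3% of all miRNAs. miR-20a stood at 0.38 and miR-17-5p at 0.24, with overlapping groups. With libraries left out in turn, miR-20a ranged from 0.24 without the second to 0.62 without the first HP replicate, and miR-17-5p from 0.011 to 0.55 without the same 2 libraries.

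The members that differed between stages did not follow the phenotype in lactation. miR-93 had a log2 fold change of 0.00 (95% interval -0.51 to 0.51) and miR-25 of -0.03 (95% interval -0.57 to 0.52) between LP and HP. Both intervals reach past 0.5 on the log2 scale in either direction. Of 3 red cell markers, miR-451 (log2 fold change 1.36) and miR-144 (1.58) were DE and higher in LP by limma. Of 2 smooth muscle markers, miR-143 was DE and higher too (0.85). Of 5 leukocyte markers, miR-150 was DE and lower in LP (-1.69), where 10.1% of all miRNAs were DE. No epithelial, endothelial or skeletal muscle marker was DE, and no marker passed an adjusted p of 0.05. The part of these cells in the member values was not tested.

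HD and LD gave the same comparison in the non-lactating gland. By limma, 0 of 10 members were DE and 0 of 10 had an unadjusted p under 0.05, where 3.35% and 4.9% of all miRNAs did. The study, which tested counts with DESeq2, listed the member miR-20b among its DE miRNAs of HD vs LD. On the normalized scale, miR-17-5p, miR-92a and miR-93 were lower in LD without overlap, 3 of 10 members against 10.3% of all miRNAs. On the deposited TPM, given above for each library, all 3 overlapped through the first LD replicate, and groups were apart in 0 of 10 members against 7.22% of all miRNAs. miR-93 was at 1849, 2037 and 1789 normalized TPM in HD and at 1477, 1270.4 and 1627 in LD (log2 fold change -0.38, SE 0.24, adjusted p = 0.993, limma). miR-92a was at 9343, 8833 and 7537 normalized TPM in HD and at 7113, 6684 and 6888 in LD (log2 fold change -0.31, SE 0.25, adjusted p = 0.993). miR-17-5p was at 363, 298 and 293 normalized TPM in HD and at 266, 196 and 266 in LD (log2 fold change -0.39, SE 0.26, adjusted p = 0.993). None of these gaps passed the test, and no member became DE when the first HD or the first LD replicate was left out.

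miR-20b had a log2 fold change of -0.67 between LD and HD with a standard error of 0.59, and its value rested on single libraries, at -1.14 without the first and -0.029 without the second LD replicate. The red cell markers summed to 680, 724 and 6127 TPM in LD, against 413 to 773 TPM in HD, and 0 of 3 were DE. DE and higher in LD by limma were 2 of 5 leukocyte markers, miR-142-5p (log2 fold change 0.81) and miR-142-3p (1.11). Of 2 endothelial markers, miR-126-5p was DE as well (1.15), where 3.35% of all miRNAs were. No epithelial or muscle marker was DE, and no marker passed an adjusted p of 0.05. The part of these cells in the LD values was not tested. Whether the phenotype difference depended on stage was tested as LP minus HP less LD minus HD. By limma, 0 of 10 members passed, with adjusted p from 0.963 to 0.993 and 0 of 10 at an unadjusted p under 0.05, beside 0% of all miRNAs at an adjusted and 5.15% at an unadjusted p under 0.05.

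**Figure D3:**
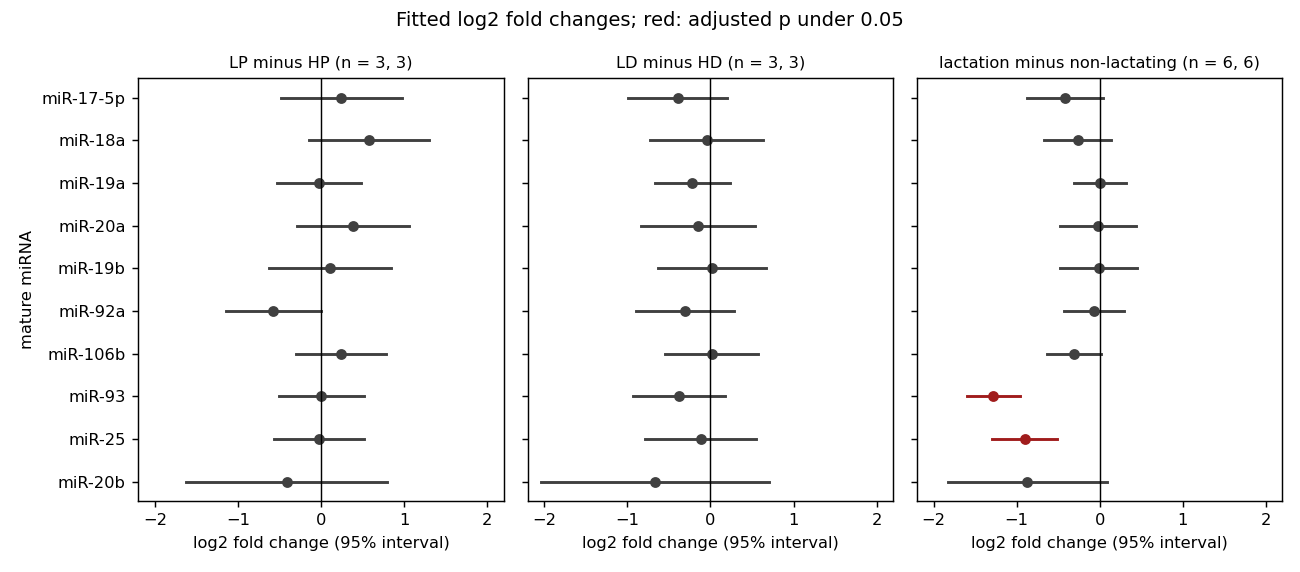
Fitted log2 fold changes (points) with 95% intervals (lines) of the 10 members for LP minus HP, LD minus HD and lactation minus non-lactating; red marks an adjusted p under 0.05. Red appears for miR-93 at -1.28 and miR-25 at -0.90 in the stage panel, and miR-20b has the widest interval in each panel.

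How far members moved together over the 12 libraries was described with a profile distance, the root mean square difference between their log2 normalized levels after each was scaled to mean 0 and SD 1. It is 0 for identical profiles and 1.35 for profiles with no relation; the libraries share their size factors, and the distances are given as a description. The median over the 45 pairs of members was 1.14. The closest pair was miR-93 and miR-25 at 0.468, followed by miR-18a and miR-106b at 0.654 and miR-17-5p and miR-18a at 0.664. miR-106b and miR-93 were 0.729 apart and miR-17-5p and miR-20a 0.737.

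miR-20b was set beside the other miRNAs of the X-linked run that the matrix held. miR-363, which carries the miR-92 seed, was measured at 14.9 to 78.5 TPM in lactation and 28.6 to 152 TPM outside it. miR-106a, a miR-17 seed miRNA, was measured at 1.47 to 4.65 and 1.91 to 8.44 TPM. miR-18b was measured at 1.51 to 3.42 and 1.81 to 6.84 TPM. All 3 overlapped between stages.

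The distance between miR-20b and miR-106a was 0.309, the smallest of all 120 pairs among the members and their relatives. miR-20b was 0.558 from miR-363 and 0.647 from miR-18b, so that 5 of the 6 smallest distances lay inside the X-linked run. The second HP, the second and the third LP and the second LD library were the 4 lowest for miR-20b, miR-106a and miR-363 and were among the 5 lowest for miR-18b. miR-20b over miR-106a was 2.65 to 7.11 over all libraries, although miR-106a rested on 13 to 186 reads. Their stage differences all pointed to lower levels in lactation without passing: -0.97 for miR-363 (SE 0.40, adjusted p = 0.0656, limma), -0.62 for miR-106a (SE 0.28, adjusted p = 0.0936) and -0.37 for miR-18b (SE 0.22, adjusted p = 0.183).

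**Figure D4:**
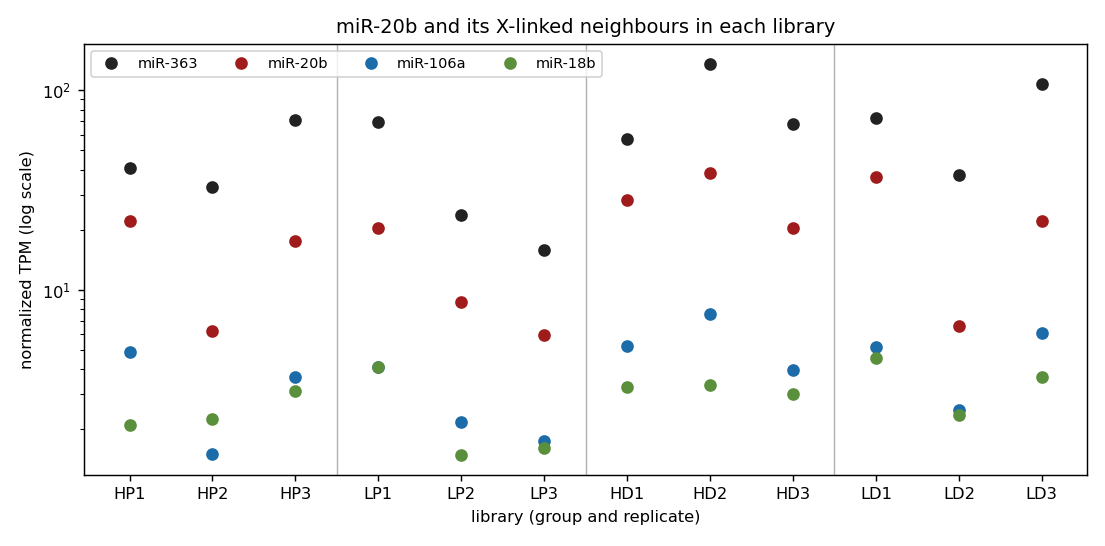
Normalized TPM on a log axis of miR-363, miR-20b, miR-106a and miR-18b in each of the 12 libraries, with vertical lines between groups; miR-106a and miR-18b coincide in LP1. For miR-20b, miR-106a and miR-363 the 4 lowest points are HP2, LP2, LP3 and LD2.

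**Figure D5:**
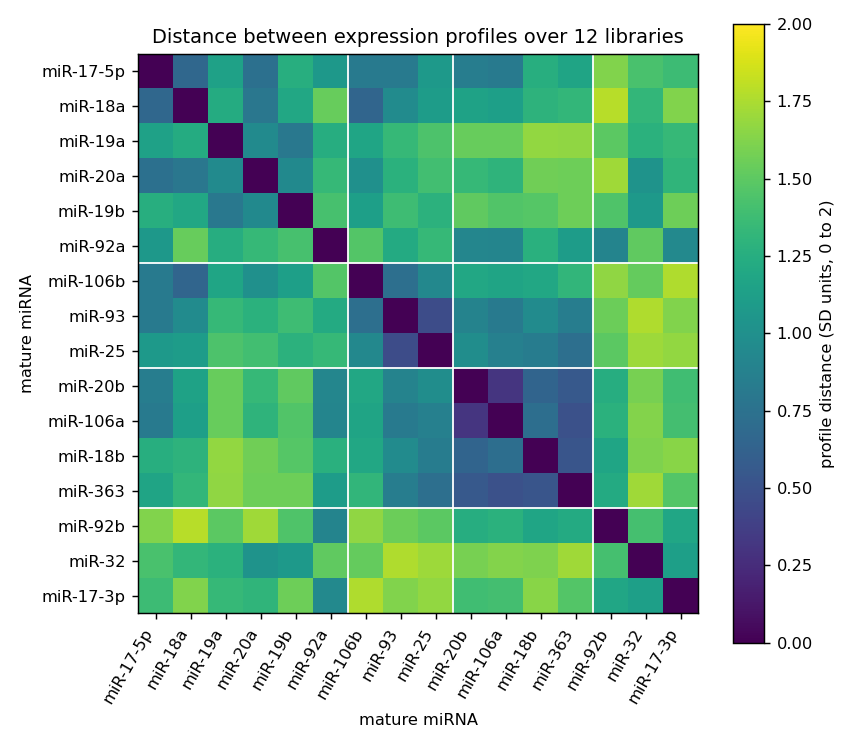
Profile distance between each pair of 16 miRNAs (10 members and 6 relatives) over 12 libraries, in SD units from 0 (dark) to 2 (light), with white lines between miR-17-92, miR-106b-25, the X-linked run and other relatives. Dark blocks mark the X-linked run, with miR-20b and miR-106a at 0.309, and miR-93 with miR-25 at 0.468.

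The mean profile of each cluster was also set against 226 other miRNAs. This mean was not rescaled to SD 1, so its distances are not on the scale of those between single miRNAs. Nearest to miR-106b-25 were miR-181d at 0.296, miR-411a at 0.3597 and miR-181c at 0.384, where the median candidate was 1.27. Their log2 fold changes between stages were -2.35, -1.60 and -2.04; these are a description, since the miRNAs were picked for a profile over the same libraries in which the cluster differed by stage. For miR-17-92 the nearest were miR-425-5p at 0.677, miR-574 at 0.702 and miR-369-3p at 0.711, where the median candidate was 1.15.

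Of 11 related miRNAs looked up, those with a shared seed, the other arm of a member's hairpin or the X-linked run, 6 were in the matrix. Between stages 1 of 6 passed, against 44.3% of all miRNAs, namely miR-32, which carries the miR-92 seed but lies outside these clusters. It was higher in lactation, in the opposite direction to miR-25. miR-32 was at 339, 125 and 78.0 TPM in HP, 303, 237 and 649 TPM in LP, 70.8, 31.6 and 137 TPM in HD, and 153, 34.5 and 70.7 TPM in LD. The stages overlapped, and the log2 fold change was 1.82 (SE 0.48, adjusted p = 0.00873, limma).

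Between HP and LP, 2 of 6 relatives were DE, against 10.1% of all miRNAs. miR-92b, a further miR-92 seed miRNA, was at 97.7, 85.5 and 104 TPM in HP and 54.7, 46.9 and 50.8 TPM in LP. Its groups did not overlap, and its log2 fold change was -0.87 (SE 0.29, adjusted p = 0.242, limma). miR-32 was higher in LP by 1.30 (SE 0.57, adjusted p = 0.307, limma) with overlapping groups. Between HD and LD, 0 of 6 were DE and 0 of 6 had an unadjusted p under 0.05 by limma, against 3.35% and 4.9% of all miRNAs.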

How the data were processed

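Small RNA of mammary biopsies was sequenced on an Illumina HiSeq with single-end reads. Per the study's methods, adapters were removed by cutadapt and low quality by Trimmomatic, lengths of 18 to 30 nt were retained, Bowtie aligned them to ARS-UCD1.2 with 1 mismatch allowed, and miRDeep2's quantifier assigned them to miRBase entries. The deposited matrix gives the authors' TPM, in effect RPM (reads scaled to the same library total) without length correction, for 426 entries; the entry with the highest mean was kept for each of 388 mature miRNAs. A read mapping to several precursors can be counted at each.

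TPM were divided by median-of-ratios size factors. log2(value + 1) was tested with limma 3.58.1 (R 4.3.3), with a mean-variance trend and Benjamini-Hochberg adjustment over all miRNAs. Fold changes are on that scale, which understates changes of miRNAs near 1 TPM. HP against LP and HD against LD used 6 libraries each, and stage and its interaction used all 12. The authors tested counts with DESeq2; counts were not analysed here. Scripts were tested on simulated data. Named miRNAs were the 10 members, 11 relatives, 21 cell markers and the 3 nearest profiles of each cluster. Members and lists were chosen with earlier results of these data known. Groups came from the labels, and replicates are separate cows. Mature sequences were not used here.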

Additional observations from a re-analysis of the deposited data

How the results depend on the processing

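Alternative settings dropped the size factors, used a pseudocount of 0.1 or 5, kept miRNAs with a mean of at least 10 TPM, left out the limma trend, kept every precursor entry, fitted all 12 libraries, added a replicate block, or left out each library in turn. An alternative without the first HD and LD replicates was chosen after seeing the data. TMM factors and count tests were not run, since the matrix holds no counts, and reads inferred from the steps of its values were used for depth alone. miR-93 stayed lower in lactation in all 20 alternatives (log2 fold change -1.39 to -1.23, adjusted p 4.4e-05 to 0.00114), and miR-25 likewise in all 20 (-1.04 to -0.81, adjusted p 0.00103 to 0.00657). Members called between stages were 2, or 3 without the first HP or the second LD replicate. For HP vs LP, HD vs LD and the interaction the count was 0 in every alternative.

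Signs changed only for values that passed no test. HP vs LP in 1 fit of 12 libraries gave 0.048 for miR-93 and 0.021 for miR-25, and miR-93 gave 0.0051 with every precursor entry kept. Without size factors, HD vs LD gave -0.22 for miR-106b and -0.16 for miR-19b, where all miRNAs shifted to a median of -0.16, and miR-19a gave -0.049 between stages. miR-19a also gave -0.015 at a pseudocount of 0.1 and -0.0040 with every precursor entry, miR-19b gave 0.0019 at a pseudocount of 5, and miR-20a gave 0.027 without the first HD and LD replicates. With libraries left out in turn, HP vs LP ranged from -0.11 to 0.069 for miR-93, -0.17 to 0.082 for miR-25, -0.19 to 0.15 for miR-19a and -0.21 to 0.32 for miR-19b. HD vs LD ranged from -0.047 to 0.12 for miR-106b, -0.15 to 0.15 for miR-19b, -0.33 to 0.0096 for miR-20a, -0.30 to 0.039 for miR-25 and -0.081 to 0.0063 for miR-18a. Stage differences ranged from -0.080 to 0.10 for miR-19a, -0.17 to 0.11 for miR-19b and -0.15 to 0.089 for miR-20a. The cause was not tested.

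Over all miRNAs, DE calls numbered 39 for HP vs LP, 22 at a pseudocount of 5 and 24 without the first LP replicate. For HD vs LD they numbered 13, 3 without size factors, 7 at a pseudocount of 5, 8 with the 10 TPM minimum, 6 without the second HD, 8 without the second LD and 36 without the first LD replicate. Stage calls numbered 172, and 114 with the 10 TPM minimum.

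Same-numbered libraries came from different cows, and their deviations correlated at -0.26 to 0.01 between HP and LP and at -0.11 to 0.55 between HD and LD, so the numbers were not taken as pairs. Of 6 libraries, 0 in HP and LP and 4 in HD and LD correlated best with their own number. With the replicate block the members called stayed at 2 between stages and 0 elsewhere, beside 34, 17 and 170 calls over all miRNAs for HP vs LP, HD vs LD and stage. Depth limits miR-19a and miR-19b, with 3 to 67 reads a library.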

Other observations

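The 2 arms of the mir-17 hairpin were both in the matrix. miR-17-3p was measured at 18.2 to 38.5 TPM in lactation and at 13.9 to 31.95 TPM in the non-lactating gland. miR-17-5p stood at 4.28 to 6.77 times miR-17-3p in HP, at 8.05 to 10.4 times in LP, at 10.8 to 15.5 times in HD and at 10.1 to 14.5 times in LD. HP was thus below every other group in this ratio, which needs no scaling between libraries. By limma, miR-17-3p itself had a log2 fold change of 0.35 between lactation and the non-lactating gland (SE 0.20, adjusted p = 0.167), opposite in sign to the -0.41 of miR-17-5p, and neither passed. The ratio of the arms was not tested.

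miR-18a over miR-17-5p, neighbours in the chromosome 12 run, was 0.0446 to 0.0681 in HP and 0.0735 to 0.0789 in LP. In HD it was 0.0502 to 0.0583 and in LD 0.0625 to 0.0783, so that the low-protein groups lay above the high-protein groups in both stages. This ratio was picked from a larger set of pairs looked at after the levels were known, and it was not tested. Other ratios, such as miR-92a over miR-20a and miR-92a over miR-93, were also apart between HP and LP. Those ratios overlapped between HD and LD. The share of all pairs whose groups were apart was not computed, so the pattern is a description. miR-18a rested on 70 to 381 reads a library.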
